A study of Mus musculus with 8 samples.

Results

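The Ikaros family genes Ikzf1, Ikzf2, Ikzf3, Ikzf4 and Ikzf5 were followed in maps of open chromatin from mouse group 2 innate lymphoid cells (ILC2s), cells that answer tissue alarm cytokines with type 2 cytokines. Their members are the called regions with a summit inside the gene body or within 50 kb of it on mm10, which gave 93 of the 60835 regions in the union of all lists. These 93 regions held 867 of the 487793 summit lines of the 4 lists. The assay was ATAC-seq, in which the Tn5 transposase inserts adapters where DNA is accessible. The ILC2s came from thymi of C57BL/6 mice of the plck-Id1 genotype, in which an Lck promoter drives Id1, an inhibitor of E proteins, in thymocytes. Cells sorted for GFP had been expanded in cytokines that included IL-33, IL-25 and IL-7.

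The first pair of groups carried a retrovirus for GFP plus E47-ER, which joins the E protein E47 to an estrogen receptor part so that 4-hydroxytamoxifen switches it on, and was harvested after 4 h or 16 h of 4-hydroxytamoxifen. The second pair carried the GFP retrovirus without E47-ER and received the same drug for 4 h or 16 h. All 4 groups therefore carried the Id1 transgene, a MIGR1 retrovirus and the drug, and no untreated or untransduced cells are in the comparison. Each group had 2 samples, and the authors made 1 peak list per group from them, so every value below is pooled, has no replicate spread and allows no test of one group against another. Sample titles and transduction labels set the groups. The free-text descriptions disagree: in every group they give replicate 1 the empty vector and replicate 2 the vector with E47-ER, and under that reading each list would mix both vectors. The sources used here do not give the age of the mice, library depth, or whether samples came from separate cultures.

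Ikaros proteins are zinc finger transcription factors of blood cells. Their N-terminal fingers bind DNA with a GGGAA core, their C-terminal fingers join family members to each other, and they recruit chromatin remodelling and deacetylase complexes such as NuRD. Ikaros (Ikzf1) is needed for lymphocyte development, Helios (Ikzf2) and Eos (Ikzf4) are best known from regulatory T cells, Aiolos (Ikzf3) from maturing B and T cells, and Pegasus (Ikzf5) is broadly expressed and binds another DNA sequence. E proteins bind E-boxes, CANNTG, and drive early lymphocyte programmes.

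A region is a run of overlapping peaks of 1 list, and regions of different lists that overlap by 1 bp or more form 1 union region. A region called with E47-ER alone overlaps no region of either GFP list and is present in both E47-ER lists; called with GFP alone is the reverse. A region that is not called may still be accessible below the threshold of its list. Fold enrichment is the authors' value over local background, taken from the strongest peak of a region, and is scaled within 1 list. Percentiles rank the −log10 p of a region within its own list. Exons and introns are not distinguished here. The full lists held 49811 regions for E47-ER at 4 h and 42665 for GFP at 4 h, and 40649 for E47-ER at 16 h and 52846 for GFP at 16 h. A summit lay within 1 kb of a gene end at 6 of 9 ILC2 markers in both E47-ER lists, and at 6 of 9 in the earlier and 7 of 9 in the later GFP list, with Rora in none. For T cell markers these numbers were 5 and 4 of 8 in E47-ER and 3 and 4 in GFP, with Cd3g, Cd8a and Cd8b1 in no list. For natural killer cell and ILC1 markers they were 2 and 2 of 4 in E47-ER and 1 and 1 in GFP, with Ncr1 and Klrb1c in no list. B cell markers had 1 and 1 of 6 in E47-ER and 1 and 2 in GFP. Myeloid markers had 1 and 0 of 5 in E47-ER and 0 and 0 in GFP. The 5 ILC3 markers had none in any list. The part of other cell types in the results below was not tested.

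Ikzf1 had the most open chromatin of the family and Ikzf5 the least. Ikzf1 (chromosome 11, 11684962 to 11772930) had 29 union regions, more than 99.6% of 21883 protein-coding genes counted with the same window, whose median was 6. Ikzf2 (chromosome 1, 69531207 to 69687351) had 23, Ikzf3 (chromosome 11, 98464610 to 98546031) had 19, Ikzf4 (chromosome 10, 128630839 to 128669671) had 17 and Ikzf5 (chromosome 7, 131388649 to 131410518) had 5. The windows differ in length, and per 100 kb of window the order was 15.4 for Ikzf1, 12.2 for Ikzf4, 10.5 for Ikzf3, 8.98 for Ikzf2 and 4.10 for Ikzf5. Ikzf1 thus stayed first, while Ikzf4 moved ahead of the longer genes. By list, Ikzf1 had 25 and 23 called union regions in E47-ER at 4 h and 16 h against 21 and 25 in GFP. Ikzf2 had 17 and 15 in E47-ER against 17 and 20 in GFP. Ikzf3 had 15 and 13 against 12 and 14, Ikzf4 had 16 and 14 against 13 and 15, and Ikzf5 had 5 and 5 against 4 and 4. In each gene but Ikzf5, E47-ER had fewer regions at 16 h than at 4 h and GFP had more, which is also the direction of the full lists. Of the 93 regions, 57 lay inside the member genes and 26 were closer to another protein-coding gene, 11 of them in the Ikzf4 window and 8 in the Ikzf3 window.

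**Figure D1:**
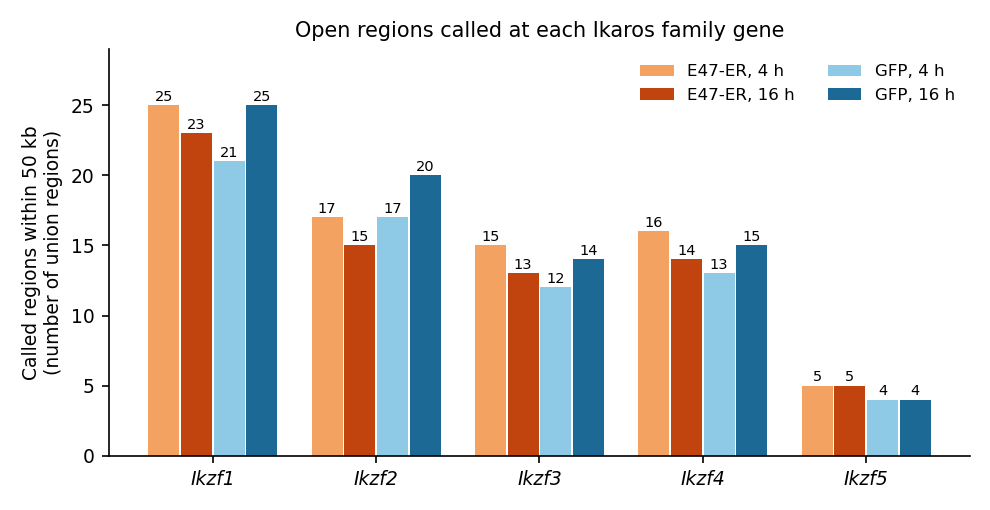
Number of union regions called within 50 kb of each gene (y axis) in each of the 4 lists (bars, 1 pooled list per group, no error). Ikzf1 has 21 to 25 regions in every list and Ikzf5 has 4 or 5.

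Most member regions were called in every list. All 4 lists held 58 of the 93 (62.4%, exact 95% binomial interval 51.7 to 72.2, counting error only), against 48.8% of all union regions. Regions called with E47-ER alone numbered 5 (5.38%, 1.77 to 12.1), against 3.43% over all regions, and those called with GFP alone 2 (2.15%, 0.262 to 7.55), against 4.56%. Both intervals hold the share of all regions, so neither count stands apart from the background. The interval for regions in every list lies above the share of all regions, but not at equal list length (50 of 78, 64.1%, 52.4 to 74.7, against 56.1%) or in windows of 5 kb (37 of 67, 55.2%, 42.6 to 67.4). The 5 regions called with E47-ER alone were 3 at Ikzf1, 1 in the Ikzf4 window and 1 in the Ikzf5 window. The 2 called with GFP alone were 1 at Ikzf2 and 1 at Ikzf3. A further 15 regions (16.1%) were in 1 list, against 22.3% of all regions. Of these, 6 were in E47-ER at 4 h alone (6.45%, against 7.21% of all regions) and 8 in GFP at 16 h alone (8.60%, against 10.6%), the 2 longest lists. Those 2 lists alone shared 3 members (3.23%, against 4.57% of all regions), and E47-ER at 16 h and GFP at 4 h alone shared 1 (1.08%, against 0.334%). With every list cut to 40649 regions by −log10 p, 3 of the 7 regions called with 1 vector alone kept that class, 2 of them at Ikzf1 and 1 at Ikzf2.

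**Figure D2:**
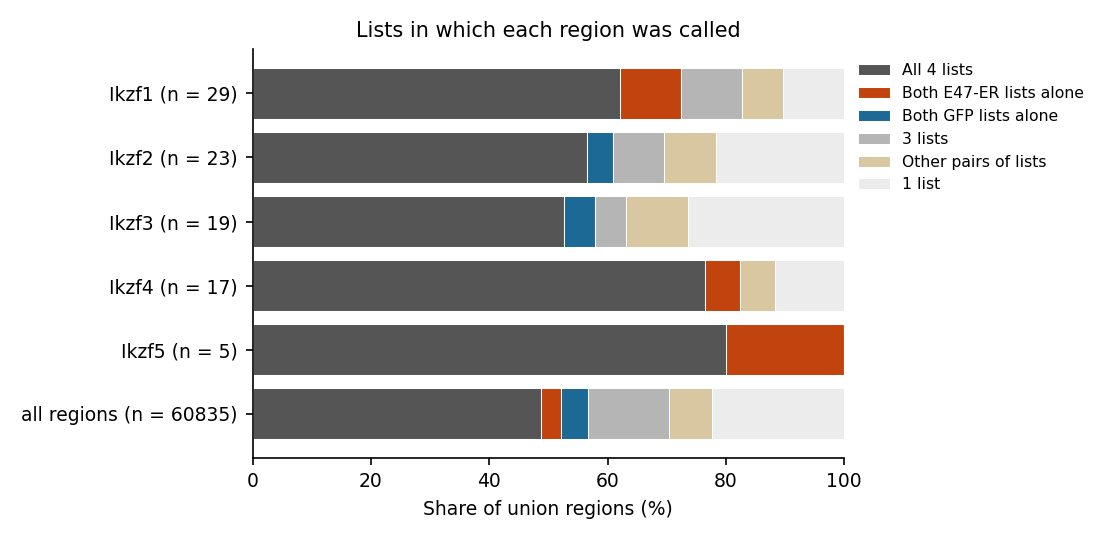
Share of union regions (x axis, %) by the lists in which they were called, for each gene and for all 60835 regions of the series. Ikzf4 has 76.5% and Ikzf5 80.0% of its regions in all 4 lists, and Ikzf3 52.6%.

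At each time taken alone, the counts followed the length of the lists. At 4 h, 19 of 89 member regions of the E47-ER list overlapped no GFP region (21.3%, 13.4 to 31.3), against 24.9% of the whole list, and 5 of 73 GFP regions overlapped no E47-ER region (6.85%, 2.26 to 15.3), against 12.4%. At 16 h, the numbers were 8 of 76 for E47-ER (10.5%, 4.66 to 19.7), against 11.8%, and 16 of 86 for GFP (18.6%, 11.02 to 28.4), against 31.6%. The last share was the one whose interval lay below the value of its list, and in windows of 5 kb it did not (14 of 59, 23.7%, 13.6 to 36.6). Some regions of a list that overlap none of the other vector are linked to it through another list and so lie in a union region called in both. With equal list lengths, 8.45% of E47-ER member regions (6 of 71, against 15.7% of all) and 11.1% of GFP ones (8 of 72, against 15.3%) had no partner at 4 h. At 16 h these shares were 21.1% for E47-ER (16 of 76, against 18.8%) and 6.25% for GFP (4 of 64, against 19.3%).

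At Ikzf1, 3 regions inside the gene were called with E47-ER alone, and none in its window with GFP alone. Of protein-coding genes, 16.2% had 1 or more regions called with E47-ER alone within the same window, 0.635% had 3 or more, 19.4% had 1 or more called with GFP alone and 0.717% had 3 or more. Genes with more regions have more chances to reach such a count, and Ikzf1 is among those with the most. All 11 Ikzf1 regions that were not in every list lay inside the gene, whereas the 3 regions before it and the 3 beyond it were called in all 4 lists.

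The last of these regions along Ikzf1 (chromosome 11, 11763165 to 11763741), 78.6 kb into the gene, had fold enrichments of 8.09 and 7.45 in E47-ER at 4 h and 16 h and was not called in GFP. Its nearest GFP region lay 1765 bp away, and its percentiles were 54.9 and 45.1. The second region (11750966 to 11751522), 66.3 kb into the gene, had folds of 6.14 and 6.12 in E47-ER and was not called in GFP, with the nearest GFP region 305 bp away. The third (11715993 to 11716285), at 31.1 kb, had folds of 3.58 and 4.37, was the weakest at percentiles of 14.4 and 21.9, and at equal list length was called in E47-ER at 16 h alone. All 3 were thus of low to middle strength within their lists.

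Next to the second region the calls differed from one region to the next. The region at 64.2 kb (11748767 to 11749527) had a fold of 5.79 in E47-ER at 4 h, was not called in E47-ER at 16 h, and had folds of 8.09 and 9.03 in GFP at 4 h and 16 h. The region at 65.6 kb (11750469 to 11750661) was called in GFP at 16 h alone, at a fold of 4.26. These neighbours were called with GFP at 16 h and not with E47-ER at 16 h, while the region 305 bp further on was called with E47-ER and not with GFP.

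**Figure D3:**
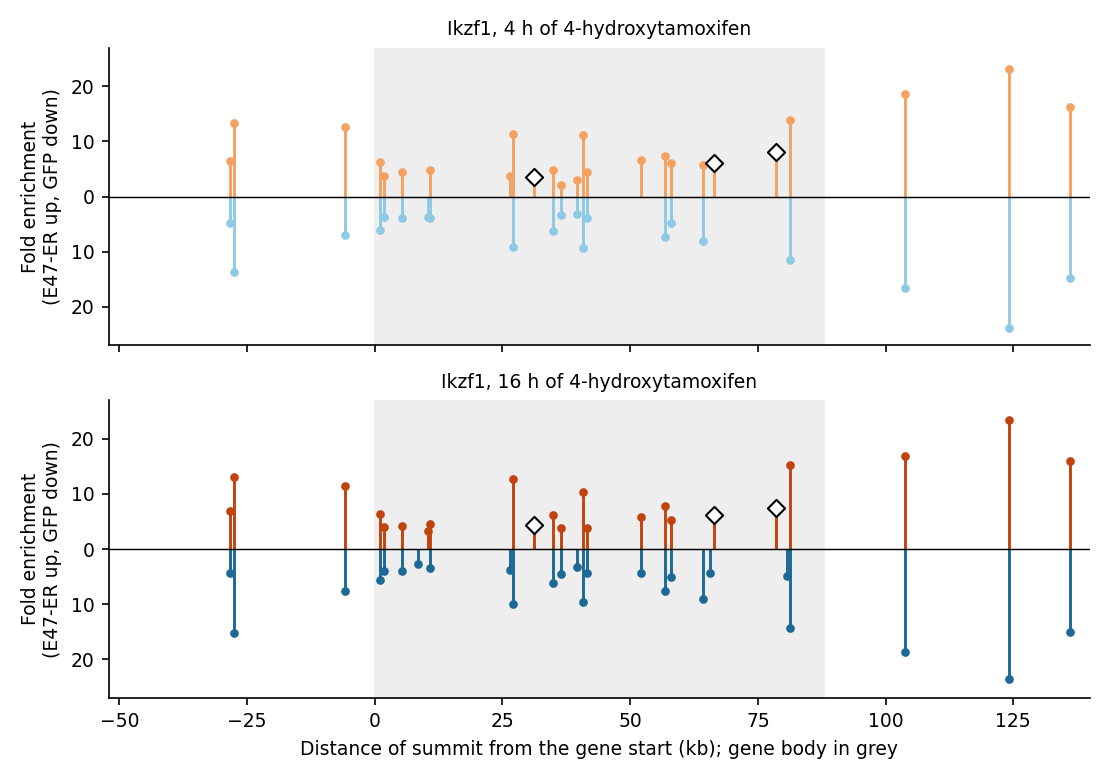
Fold enrichment of each called region (E47-ER upward, GFP downward) against the distance of its summit from the start of Ikzf1 (kb), at 4 h and 16 h, with the gene body in grey. Open diamonds mark the 3 regions called with E47-ER alone, at 31.1, 66.3 and 78.6 kb, which have no GFP stem at either time.

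Regions of Ikzf1 called in every list differed in fold at a few sites, before and inside the gene. The region 5828 bp before the gene start (11679040 to 11679658) had folds of 12.7 and 11.5 in E47-ER at 4 h and 16 h against 6.93 and 7.65 in GFP, ratios of 1.83 and 1.498. Both E47-ER values lay above both GFP values. The same order held at regions with ratios closer to 1, such as those 0.94 and 5.40 kb into the gene. Their ratios at 4 h and 16 h were 1.03 and 1.14, and 1.145 and 1.06. How many of all regions have this order was not counted. The region 28363 bp before the gene (11656285 to 11656819) had folds of 6.43 and 6.96 in E47-ER against 4.74 and 4.34 in GFP, ratios of 1.36 and 1.61. Its neighbour, 27594 bp before the gene, had 13.4 and 13.2 in E47-ER against 13.8 and 15.2 in GFP, so adjacent regions did not share a direction. Inside the gene, the region at 26.99 kb (11711661 to 11712224) had folds of 11.4 and 12.7 in E47-ER against 9.11 and 10.04 in GFP. The region at 36.5 kb (11721284 to 11721547) lay the other way, with 2.14 and 3.77 in E47-ER against 3.38 and 4.52 in GFP.

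The start of Ikzf1 was open in every list at nearly the same fold. The RefSeq table (GRCm38.p6, the assembly of mm10) gives 2 promoter windows for Ikzf1, each from 250 bases before to 50 bases after a start on the plus strand, and both overlapped regions called in all lists. The region over the first (chromosome 11, 11685252 to 11686462) had folds of 6.17 and 6.32 in E47-ER against 6.01 and 5.53 in GFP, with a summit 23 bp from the start. The region over the second (11689931 to 11690635) had folds of 4.50 and 4.22 in E47-ER against 3.93 and 3.99 in GFP. Both sequences are shown because the regions over them were called with both vectors at similar folds. Capitals mark matches to CANNTG, the E-box of E proteins, or to GGGAA, the Ikaros core, on either strand.
Ikzf1 first promoter, chr11:11685675-11685974, plus strand: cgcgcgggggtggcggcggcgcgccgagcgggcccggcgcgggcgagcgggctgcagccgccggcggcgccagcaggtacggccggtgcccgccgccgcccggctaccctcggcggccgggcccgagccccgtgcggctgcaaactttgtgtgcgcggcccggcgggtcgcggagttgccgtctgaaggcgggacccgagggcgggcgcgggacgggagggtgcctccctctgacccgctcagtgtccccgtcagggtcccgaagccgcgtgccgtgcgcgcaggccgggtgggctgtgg
Ikzf1 second promoter, chr11:11689927-11690226, plus strand: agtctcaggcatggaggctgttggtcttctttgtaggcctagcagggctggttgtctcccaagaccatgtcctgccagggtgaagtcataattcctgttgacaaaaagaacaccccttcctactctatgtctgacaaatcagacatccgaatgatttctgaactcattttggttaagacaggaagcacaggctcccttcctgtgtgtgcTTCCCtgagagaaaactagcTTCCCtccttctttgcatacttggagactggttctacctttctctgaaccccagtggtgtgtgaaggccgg
The first window held no match to either motif and had 81.3% G and C, against a median of 52.7% over all promoters of the table. The second held 2 matches to GGGAA, read as TTCCC on the printed strand, and no CANNTG. Of the 32851 promoter windows of the same length in the table, 72.3% held CANNTG and 62.7% held GGGAA on either strand. A match describes letters and no binding, and no sequence was read for the regions called with E47-ER alone.

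For Ikzf2 to Ikzf5, positions inside a gene are counted from its lower coordinate. Ikzf2, which encodes Helios, had 13 of 23 regions in all 4 lists and no region called with E47-ER alone. Its region called with GFP alone (chromosome 1, 69589879 to 69590100) lay 58.8 kb into the gene with folds of 8.99 and 8.35 in GFP at 4 h and 16 h, and the nearest E47-ER region was 4945 bp away. This call held at equal list length. A further 4 of its 23 regions were called in GFP at 16 h alone, a class that holds 10.6% of all regions, at folds of 3.63 to 7.61, and 3 of them lay inside the gene. The region with the highest fold (69544062 to 69544779) had 14.3 and 14.2 in E47-ER against 12.6 and 14.3 in GFP. At the upper end of the gene, the region at 69686997 to 69688027 had folds of 9.13 and 9.33 in E47-ER against 11.2 and 7.07 in GFP, so E47-ER was lower at 4 h and higher at 16 h. The region 32025 bp below the gene (69498850 to 69499481) had 5.99 and 6.24 in E47-ER against 7.86 and 7.81 in GFP, ratios of 0.76 and 0.80. Both E47-ER values there lay below both GFP values, an order that was not counted over all regions. No other protein-coding gene lay within 50 kb of Ikzf2.

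Ikzf3, which encodes Aiolos, had 10 of 19 regions in all lists, the lowest share of the family, and 4 of 19 in E47-ER at 4 h alone, a class that holds 7.21% of all regions. Of those 4, 3 lay inside the gene, and the strongest (chromosome 11, 98492936 to 98493391) had a fold of 7.20 with no GFP region within 4788 bp. The region at 98510113 to 98510589 lay 2284 bp from the nearest GFP region. The other 2 were weak, at percentiles of 1.11 (98479568 to 98479989) and 3.28 (98586756 to 98586884), and lay 62 and 73 bp from a GFP region. By definition of the class, none was called in E47-ER at 16 h. The region called with GFP alone (98464594 to 98464891) covered the lower end of the gene, with folds of 5.03 and 5.26 in GFP at percentiles of 5.92 and 10.1. At equal list length it was called in GFP at 4 h alone. The region at 5.81 kb (98469822 to 98470911) had folds of 12.1 and 11.03 in E47-ER against 8.53 and 8.23 in GFP, ratios of 1.42 and 1.34. The next region, at 12.8 kb (98476815 to 98477687), had 7.90 and 7.19 in E47-ER against 6.43 and 5.43 in GFP. At 23.1 kb the order was reversed, with 7.84 and 6.55 in E47-ER against 9.40 and 9.17 in GFP (98487548 to 98488162). All 10 regions of the Ikzf3 window that were in every list had their ratio on the same side of 1 at both times, 5 above and 5 below. Of these 10 regions, 5 lay inside Ikzf3, 2 below it and 3 above it. Over all regions of the series in every list, 27.4% were above 1 at both times and 22.5% below, and the difference was not tested. Regions on different sides at the 2 times numbered 4 of 18 at Ikzf1, 7 of 13 at Ikzf2, 6 of 13 at Ikzf4 and 2 of 4 at Ikzf5. Some of the 10 had ratios close to 1, such as 1.03 and 1.02 at the region inside Mien1.

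The upper end of Ikzf3 held a weak region (98545657 to 98546151) that was not called in E47-ER at 4 h, had a fold of 5.11 in E47-ER at 16 h, and had folds of 3.67 and 3.90 in GFP at 4 h and 16 h. The strongest regions of the window lay with its neighbours. One inside Mien1 (98438543 to 98439161), 25654 bp from Ikzf3, had folds of 21.05 and 20.4 in E47-ER against 20.3 and 19.9 in GFP. One 4971 bp beyond Ikzf3 (98549895 to 98551766), closest to Zpbp2, had 13.6 and 15.8 in E47-ER against 13.3 and 13.2 in GFP.

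Ikzf4, which encodes Eos, sits among many genes, and 13 of the 17 regions in its window were in every list. The highest fold was at a region 4036 bp below the gene and next to Rps26, a ribosomal protein gene (chromosome 10, 128625926 to 128627175). It had 20.1 and 22.1 in E47-ER against 14.7 and 15.9 in GFP, ratios of 1.37 and 1.39. Both of its E47-ER values lay above both GFP values, an order that was not counted over all regions. Whether this region acts on Ikzf4 or on Rps26 was not tested. Inside Ikzf4, the region at 6.38 kb (128637004 to 128637483) had folds of 7.98 and 6.41 in E47-ER against 7.33 and 10.2 in GFP. The region at 33.2 kb (128663899 to 128664171) had 15.1 and 14.5 in E47-ER against 10.96 and 14.1 in GFP. Below the gene, the region 17966 bp away and also closest to Rps26 (128612740 to 128613500) had 16.5 and 15.4 in E47-ER against 12.98 and 20.1 in GFP, so E47-ER was higher at 4 h and lower at 16 h. The region called with E47-ER alone (128715924 to 128716717) lay inside Pmel, a melanosome gene, 46710 bp from Ikzf4. Its folds were 5.28 and 5.83 at percentiles of 2.95 and 6.45, and at equal list length it was called in E47-ER at 16 h alone. No region inside Ikzf4 was called with 1 vector alone at both times.

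Ikzf5, which encodes Pegasus, had 4 regions in every list and 1 called with E47-ER alone. The strongest (chromosome 7, 131409910 to 131410957) covered its start, which lies on the minus strand next to the lower end of Acadsb, and had folds of 20.8 and 19.4 in E47-ER against 19.8 and 20.1 in GFP. The region inside the gene (131397212 to 131397942) had folds of 11.3 and 9.36 in E47-ER against 11.2 and 17.2 in GFP, ratios of 1.01 and 0.54. This was the lowest ratio among the shared member regions at 16 h, and GFP at 16 h stood apart from the other 3 lists. The region called with E47-ER alone (131411047 to 131411131) was 85 bp wide, had folds of 3.32 and 3.91, and lay 105 bp from the nearest GFP region. With peaks up to 200 bp apart merged it joined that neighbour and was in all lists. The promoter window, which the strong region covers, is shown with the same capitals.
Ikzf5 promoter, chr7:131410429-131410728, minus strand: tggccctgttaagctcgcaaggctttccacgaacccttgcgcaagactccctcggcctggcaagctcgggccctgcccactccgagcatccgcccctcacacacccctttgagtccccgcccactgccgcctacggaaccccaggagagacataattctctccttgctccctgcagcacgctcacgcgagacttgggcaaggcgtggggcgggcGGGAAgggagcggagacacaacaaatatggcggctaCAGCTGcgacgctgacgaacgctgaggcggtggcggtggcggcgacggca
It held 1 E-box, CAGCTG, a form found in 16.3% of all promoter windows, and 1 GGGAA, and these matches do not overlap. The table matched 2 of the 5 genes, Ikzf1 and Ikzf5, and Ikzf2, Ikzf3 and Ikzf4 are named only.

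**Figure D4:**
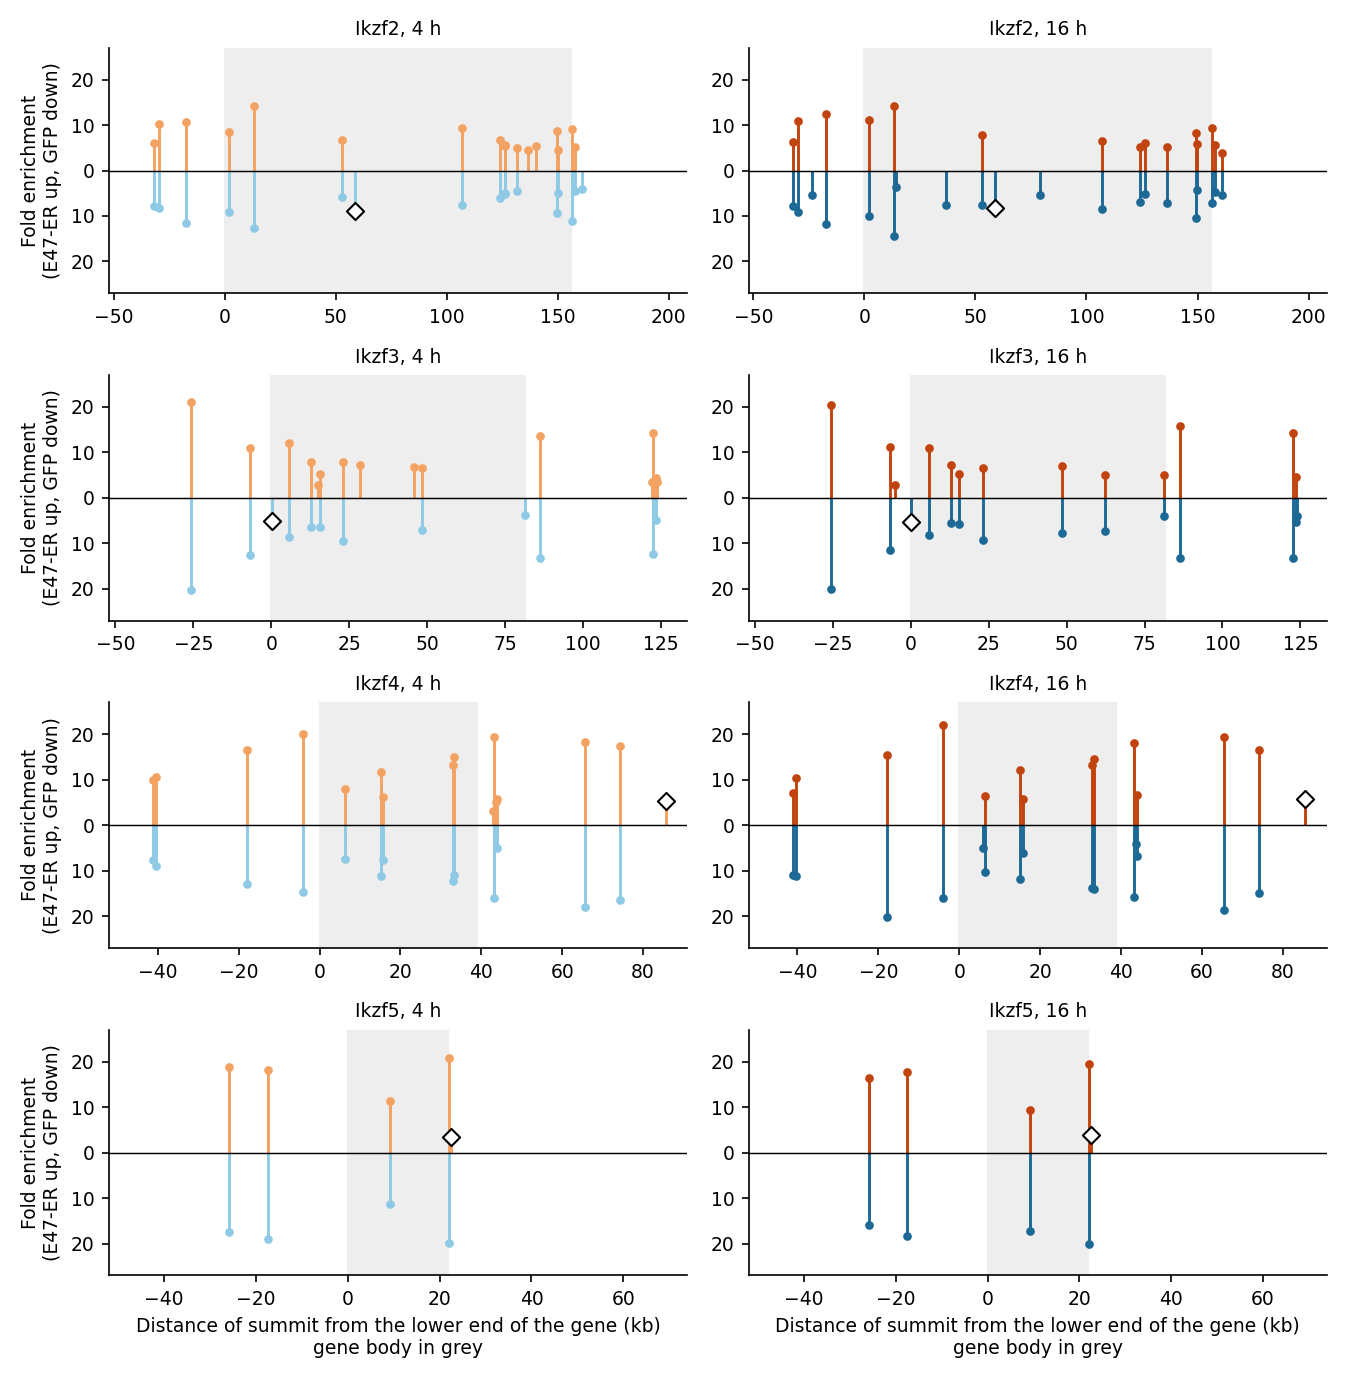
Fold enrichment of each called region (E47-ER upward, GFP downward) against the distance of its summit from the lower end of Ikzf2, Ikzf3, Ikzf4 and Ikzf5 (kb), at 4 h on the left and 16 h on the right, with gene bodies in grey. Open diamonds mark regions called with 1 vector alone: with GFP at Ikzf2 (folds of 8.99 and 8.35) and Ikzf3 (5.03 and 5.26), and with E47-ER in the Ikzf4 window (5.28 and 5.83) and the Ikzf5 window (3.32 and 3.91).

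Over all shared regions, fold ratios were close to 1. At 4 h, 62 member regions were called in both lists, with a median E47-ER to GFP ratio of 1.07 (0.63 to 1.83) beside 1.07 over 35382 shared regions. At 16 h, 63 were shared, with a median of 1.02 (0.54 to 1.61) beside 0.94 over 33682. Ratios above 1.5 were found for 1 member at 4 h (4.41% of all shared regions) and 1 at 16 h (1.28%), both before Ikzf1. Ratios below the inverse of 1.5 were found for 1 member at 4 h (1.36%), inside Ikzf1, and for 3 at 16 h (8.45%), inside Ikzf4, in its window near Erbb3, and inside Ikzf5. With each ratio divided by the median of all shared regions, 2 members were above 1.5 at 16 h and 1 was below the inverse.

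Agreement between the times was then followed at the 58 regions in every list. The 4 h and 16 h ratios share no library, but whether the samples came from separate cultures is not given. The ratio was above 1 at both times for 26 of the 58 (44.8%), against 27.4% of the 29667 such regions in the series. It was below 1 at both times for 13 (22.4%), against 22.5%. These shares have no interval, and the difference was not tested. At the planned limit of 1.5-fold, 0 of the 58 were higher and 0 lower in E47-ER at both times. Of all 29667 such regions, 146 were higher and 125 lower. A ratio above 1.25 at both times, a limit chosen after the values were seen, was reached by 5 member regions (8.62%), against 2.42% of all, and this was not tested. These were the regions at 28363 and 5828 bp before Ikzf1, at 26.99 kb in Ikzf1, at 5.81 kb in Ikzf3 and next to Rps26 in the Ikzf4 window. A ratio below 0.80 at both times was reached by 1 (1.72%), the region 32025 bp below Ikzf2, against 2.76% of all.

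**Figure D5:**
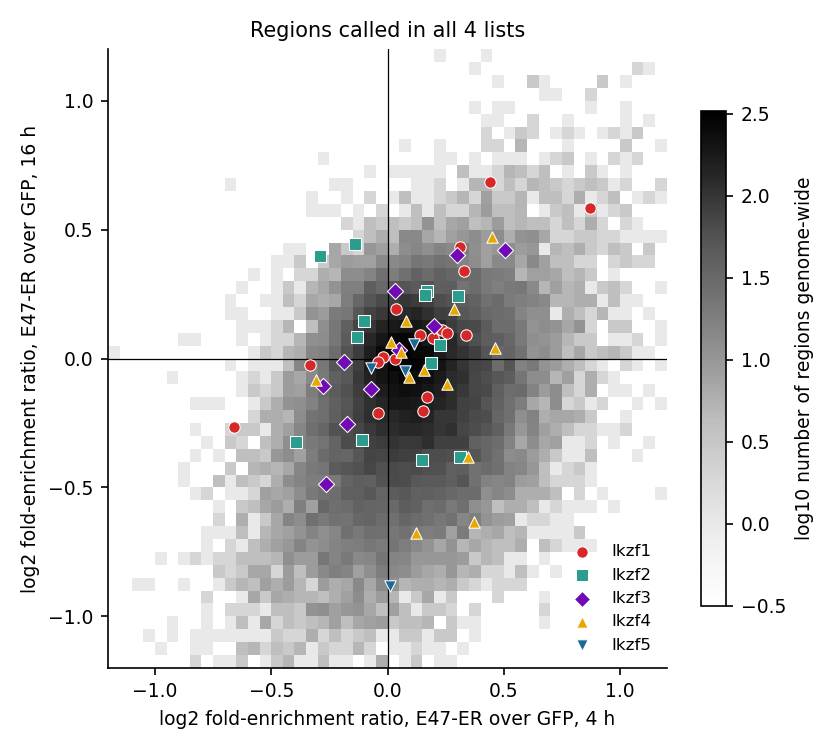
The log2 ratio of fold enrichment, E47-ER over GFP, at 4 h (x axis) and 16 h (y axis) for the 58 member regions in all 4 lists (coloured symbols, 1 per region) over all such regions (grey, log10 number per cell; 140 regions lie outside the axes). The 2 Ikzf1 regions furthest to the upper right are those 5828 and 28363 bp before the gene.

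Within a vector, the later list was set beside the earlier one. Of the 76 E47-ER member regions at 16 h, 5 had no partner at 4 h (7.73% of the whole list had none), and of the 89 at 4 h, 14 had none at 16 h (25.3%). Of the 86 GFP member regions at 16 h, 15 had no partner at 4 h (24.8%), and of the 73 at 4 h, 3 had none at 16 h (8.02%). The member shares were 6.58% and 15.7% for E47-ER and 17.4% and 4.11% for GFP in the same order, each below its list. They rest on 5, 14, 15 and 3 regions and have no interval, so whether they stand apart from their lists was not tested.

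Genes of the Ikaros pathway were counted with the same window. All 17 corepressor partners, the NuRD, Sin3 and CtBP genes, had regions: 6 had a region called with E47-ER alone and 5 one called with GFP alone. These were 7 against 8 of 222 union regions, counted gene by gene. Sin3b, a scaffold of the Sin3 deacetylase complex, had 2 regions called with E47-ER alone and none with GFP alone, both inside the gene, with folds of 7.28 and 6.56, and of 6.00 and 7.23, in E47-ER at 4 h and 16 h. Mbd2, a NuRD subunit that reads methylated DNA, and Mta1, a NuRD core subunit, had 2 regions each called with GFP alone. Gatad2a, another NuRD subunit, had 1 with E47-ER alone and 2 with GFP alone. None of the 4 cereblon ligase genes, Crbn, Ddb1, Cul4a and Rbx1, through which immunomodulatory drugs degrade Ikaros and Aiolos in human cells, had a region called with 1 vector alone at both times. Of 25 genes known as targets of the family, 23 had regions. A region called with E47-ER alone was found at 4, among them Dntt, and one called with GFP alone at 4 (Il2ra, Notch3, Ifng and Il7r). Each way these were 6 of 184 union regions, counted gene by gene. Dntt, which encodes terminal transferase and is silenced by Ikaros in maturing thymocytes, had 3 of the 6, the strongest with folds of 13.6 and 12.7 in E47-ER at 4 h and 16 h (chromosome 19, 41039117 to 41039689). Cd8a and Cd8b1 had no region in any list. The shares of genes with a region called with 1 vector alone in the whole table were 16.2% for E47-ER and 19.4% for GFP. Of all union regions, 3.43% were called with E47-ER alone and 4.56% with GFP alone. The median number of union regions per gene was 11 for the corepressor partners and 7 for the targets, against 6 for all protein-coding genes. Genes with more regions have more chances to hold such a call, and neither list was tested against these shares.

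Genes whose 6 counts were most like those of a member were named by the smallest sum of absolute differences over the 4 lists and the numbers called with 1 vector alone. For Ikzf1 these were Vps13d at a sum of 4, and Atxn7l1 and Coro1c at 6. For Ikzf2 they were Kcnn1 at 1, and Asic3 and Glrx5 at 2. For Ikzf3 they were Pik3ap1 and Rabggta at 1 and Eng at 2, and for Ikzf4 Adssl1 at 0 and Klf16 and Naca at 1. Atxn7l1 and Coro1c had as many regions called with E47-ER alone as Ikzf1, 3 each, beside 2 and 1 called with GFP alone. Several genes tied at most of these sums, up to 9 at one value. At the edge of the window, the outermost member lay 48091 bp from Ikzf1 with folds of 16.3 and 16.1 in E47-ER against 14.8 and 15.1 in GFP, and the nearest region left out lay 50091 bp from Ikzf3 with 8.30 and 6.33 against 8.78 and 9.07.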

How the data were processed

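ATAC-seq peak lists of 4 groups of 2 samples were used, 1 list per group. The submitters' processing notes name mm10 and the tools cutadapt, MACS2, Bowtie2 and DiffBind; the sources used here give no versions or roles. Per the labels, signal was pooled after trimming, Tn5 adjustment and removal of duplicate and mitochondrial reads, and the lists are conservative sets by irreproducible discovery rate, which keeps peaks that replicates share. The deposited lists give, per peak, a score from 540 to 1000, a fold enrichment over local background (a ratio) and −log10 of p; the score was not used.

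Overlapping lines of a list were merged to regions, and regions overlapping by 1 bp or more across lists to union regions. Gene bodies came from RefSeq GRCm38.p6. Shares have exact Clopper-Pearson intervals at 95%, for counting error only; depth is unknown. Members and gene lists were chosen with earlier results of these data known. Named genes were the 5 members, up to 4 genes per other list and direction, and the 3 nearest in counts for each member with 10 or more regions; others, and the neighbours of members, were named after their values were seen. Alternatives were 50% overlap, 200 bp merging, equal list length, regions above the median, summits within 150 bp, windows of 5 and 100 kb, and for fold the median-scaled ratio and the mean of a region's lines. Class assignment was tested on simulated data. Tools were Python 3.11.15 with scipy 1.17.1, pandas 2.3.3, matplotlib 3.10.9 and numpy 2.4.6.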

Additional observations from a re-analysis of the deposited data

Results flagged for a closer look

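In 4 member regions the calls turned round between the times: each was called with 1 vector at 4 h and with the other at 16 h, each group being 1 list, and this was not tested. Each of the 4 lay next to a region called in every list, and whether they are sites of their own was not tested. Ratios on different sides of 1 at the 2 times, found at 19 of the 58 regions in every list, are not counted here. Being called in E47-ER at 4 h and GFP at 16 h alone held for 3 of 93 members (3.23%) and for 4.57% of all regions, and the reverse for 1 member (1.08%) and for 0.334% of all, with an exact 95% interval for that member share of 0.0272 to 5.85. In Ikzf1 (chromosome 11, 11711365 to 11711614), the region was called with E47-ER at 4 h at a fold of 3.74 and with GFP at 16 h at 3.71, and not in the other lists. Its percentiles in those lists were 12.4 and 3.96. The Ikzf3 window had such a region (98588395 to 98588553) at 3.43 in E47-ER at 4 h and 3.95 in GFP at 16 h. Its percentiles were 2.22 and 7.75. The Ikzf4 window had one (chromosome 10, 128674506 to 128674641) at 5.14 in E47-ER at 4 h and 4.21 in GFP at 16 h. Its percentiles were 38.9 and 22.9. E47-ER at 4 h and GFP at 16 h are the 2 longest lists. A region in Ikzf1 (11695211 to 11695512) had the reverse pattern, at 3.28 in E47-ER at 16 h and 3.65 in GFP at 4 h. Its percentiles were 4.91 and 11.3.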

How the results depend on the processing

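Of 49 recomputed shares, 39 stayed within the 95% interval of the reported value, including all under 50% overlap, 200 bp merging, single summits and both other windows. At equal list length, shares without a partner came to 8.45% (E47-ER, 4 h), 21.1% (E47-ER, 16 h) and 6.25% (GFP, 16 h), against 15.7%, 18.8% and 19.3% of all regions, and the last was the one below its list by its interval. Above the median −log10 p they were 4.88% for E47-ER (2.52% of all regions) and 0% (0 of 36, which allows up to 8.33%) for GFP (0.459% of all) at 4 h, and 0% (0 of 34, up to 8.82%) for E47-ER (1.10% of all) and 2.38% for GFP (6.76% of all) at 16 h. There, 0% of 31 union regions (up to 9.68%) were called with E47-ER alone (0.648% of all), 0% with GFP alone (0.287% of all) and 100% in all lists (97.7% of all). The share in all lists was higher than that of all regions in every setting. Its interval lay above that of all regions as reported and under 4 of the 7 alternatives. At equal length, above the median and in 5 kb windows the interval held the share of all regions. For the 1.5-fold counts, median scaling gave 2 members higher and 1 lower at 16 h, and mean fold gave 2 higher at 4 h and 4 higher and 5 lower at 16 h. Causes were not tested. No paired analysis was possible because the lists pool the samples of a group, and for the same reason no replicate could be left out.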

Other observations

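The width of a union region spans all lists that call it, so it can only grow as lists are added. With that limit, the median width was 623 bp for the 58 member regions in every list. It was 293 bp for the 35 regions missing from at least 1 list, and widths over all regions were not compared. Of those 35, 26 lay inside the member genes, against 31 of the 58 in every list. In 4 of the 5 windows, all but that of Ikzf2, the region with the highest fold had its summit closest to another gene. These genes were Fignl1 for Ikzf1, Mien1 for Ikzf3, Rps26 for Ikzf4 and Acadsb for Ikzf5. The region of the Ikzf5 window nonetheless covers the Ikzf5 promoter window, and its summit in Acadsb lay 148 bp past the end of Ikzf5. The one near Fignl1 (chromosome 11, 11808565 to 11809486) had folds of 23.2 and 23.3 in E47-ER against 23.9 and 23.6 in GFP. Among the family's target genes, Rag1, which encodes a subunit of the recombinase, had 10 and 3 union regions in E47-ER at 4 h and 16 h against 8 and 8 in GFP. Rag2 had 9 and 3 against 8 and 7, and the windows of these genes may share regions. The whole E47-ER list also fell, from 49811 to 40649 regions. Rag1 was named from the 25 targets after its values were seen, and the drop was not tested.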
